A study of Homo sapiens with 18 samples.

Results

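KO1 and KO2 are SETD3 knockout lines derived from HCT-116, a long-established human cell line from a colorectal carcinoma, and their 6 libraries (3 a line) are part of 18 libraries in the study. Members of the comparison were chosen by the line named in the sample titles, and all expressed genes were read. The 3 libraries of the SETD3 control line (SETD3 CT) were sequenced with them and are given as the reference level. The labels give SETD3 CT the genotype SETD3 Control and both knockout lines the genotype SETD3 KO, with no added agent and no time point. All 9 libraries were made from poly(A)-selected RNA of cells kept in DMEM and serum. The labels do not say where SETD3 was edited, whether a line is a single clone, or whether replicates were separate cultures, so p-values measure the spread between these libraries, which may be technical. The cell line label of KO2 replicate 3 reads HCT-117, and the library was kept in its group.

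SETD3 is the enzyme that methylates a histidine of actin, and the study asks how actin methylation bears on translation and adhesion through the chromatin remodeller SMARCA4. A pair of knockout lines of the same gene shares the loss of that gene, while each line also has its own history of selection and growth. Setting the lines against each other shows which genes differ although both lines carry the same genotype label. Type I interferon signals through a complex of STAT proteins and IRF9, which binds a sequence called the interferon-stimulated response element (ISRE) in the promoters of its target genes. Many epithelial lines also express a part of these target genes with no interferon added.

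Total counts were 6526017 to 7899891 in the KO1 libraries, 3389586 to 11652967 in the KO2 libraries and 4898827 to 9966534 in the SETD3 CT libraries. KO2 replicate 1 was the shallowest library and stood apart. It had no count for 14.1% of the 13846 genes tested, against 1.57% to 9.58% in the other 8 libraries. Its mean correlation with the other KO2 libraries, on log2 levels, was 0.823, against 0.893 and 0.880 for the others of that line. Each of the latter means includes the correlation with replicate 1. Of the epithelial markers, KRT18 was at 3539 to 5934 CPM (the usual count-per-library-size unit, scaled by the TMM method) in KO1 and at 4068 to 5527 CPM in KO2. EPCAM was at 550 to 784 CPM in KO1 and at 169, 652 and 843 CPM in KO2, where the low value is replicate 1. VIL1 and GPA33, which mark intestinal epithelium, had at most 1 count in any of the 9 libraries.

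SETD3 (chromosome 14, 99397746 to 99480889 in GRCh38) was read first. Its level was 15.5, 14.0 and 36.0 CPM in SETD3 CT, 6.81, 6.34 and 17.1 CPM in KO1, and 15.6, 22.3 and 27.7 CPM in KO2. The lines overlapped, since the highest KO1 library lay above the lowest KO2 library. The log2 difference (KO2 minus KO1) was 1.12 (SE 0.52, unadjusted p = 0.0511, adjusted p = 0.999, edgeR quasi-likelihood test). SETD3 RNA in KO2 lay in the range of the control, so RNA level over the whole gene did not check the knockout label of either line. ACTB, a cytoplasmic actin, was at 1361 ± 90.3 CPM in KO1 and at 972 ± 300 CPM in KO2 (SD, n = 3). Its log2 difference was -0.48 (SE 0.22) at an adjusted p of 0.999 in edgeR. ACTG1, the other cytoplasmic actin, was at 3975 ± 344 and 2996 ± 986 CPM (log2 difference -0.41, adjusted p = 0.999 in edgeR), and its lowest value, 1932 CPM, came from KO2 replicate 1. SMARCA4, the ATPase of the BAF remodelling complex, was at 215 ± 12.4 CPM in KO1 and 183 ± 37.0 CPM in KO2, with overlapping libraries.

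Between the lines, 4 of 13846 tested genes passed at an adjusted p below 0.05 in edgeR (0.0289%), and all 4 were higher in KO2. IFI27, IFI6 and BST2 are interferon-stimulated genes, and LY6D encodes a surface protein of stratified epithelium. No gene passed as lower in KO2 by this test. At an unadjusted p below 0.05, 670 genes differed (4.84%), of which 376 were higher in KO2 (2.72%) and 294 lower (2.12%). DESeq2 called 37 genes higher and 19 lower (0.404% of genes in all), and limma-voom called 8 higher and 1 lower (0.065%). Without the 2 libraries under 5000000 counts, KO2 replicate 1 and SETD3 CT replicate 2, edgeR called 7 genes higher and 3 lower (0.068%), the same 4 among them. With no filter beyond 1 count it called 58 genes (0.237%). For comparison, KO1 differed from SETD3 CT at 2 genes (0.0144%) and KO2 differed from it at 8 genes (0.0578%), 2 comparisons that share their control libraries with each other. Over all tested genes the median log2 difference was 0.01, with 7025 genes higher and 6819 lower in KO2.

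**Figure D1:**
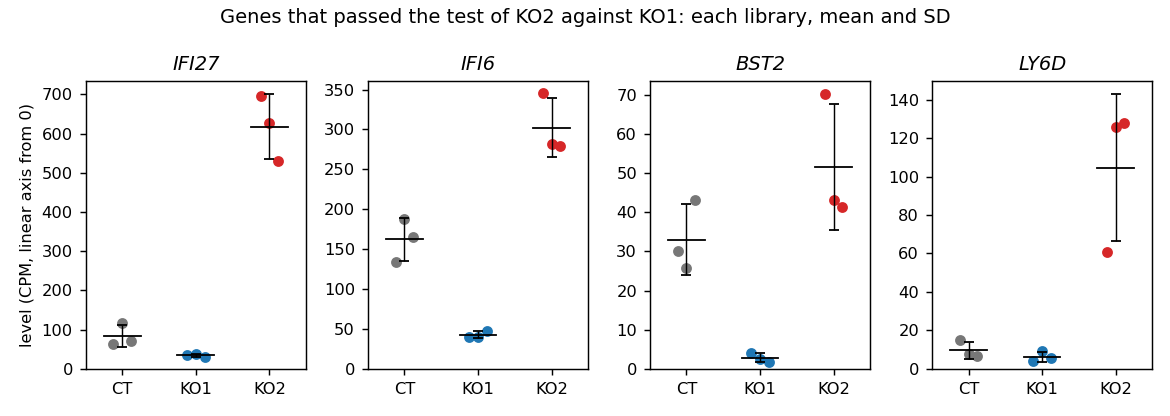
Level of the 4 genes that passed the test, in CPM on linear axes from 0, for each library of SETD3 CT, KO1 and KO2, with the mean and SD (n = 3) of each group as lines. In each panel the 3 KO2 libraries sit above the 3 KO1 libraries, and for IFI6 and BST2 the KO1 libraries also sit below SETD3 CT.

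Promoter sequence is shown for the 3 interferon-stimulated genes because their promoters share a motif. The stretches come from RefSeq promoter entries on GRCh38.p14, read 5′ to 3′ on the strand of the gene. Those of IFI27 and IFI6 hold no annotated untranslated base. For IFI27 the RefSeq start used lies inside the GENCODE span of the gene, 94104836 to 94116698, and so does the stretch. Capitals mark the ISRE-like motif searched on both strands, which is GAAA, any 2 bases and GAAA.
IFI27, chr14:94110486-94110677, plus strand: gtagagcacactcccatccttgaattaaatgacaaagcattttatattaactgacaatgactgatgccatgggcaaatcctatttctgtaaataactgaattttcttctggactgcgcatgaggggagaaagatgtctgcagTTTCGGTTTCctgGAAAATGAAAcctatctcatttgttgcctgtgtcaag
IFI6, chr1:27672219-27672442, minus strand: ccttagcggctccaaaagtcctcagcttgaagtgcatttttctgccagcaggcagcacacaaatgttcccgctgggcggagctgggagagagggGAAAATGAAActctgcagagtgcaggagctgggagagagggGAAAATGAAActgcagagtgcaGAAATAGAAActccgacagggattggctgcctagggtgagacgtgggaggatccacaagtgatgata
BST2, chr19:17405738-17405767, minus strand: tttctggGAAACTGAAACTGAAAacctaat
In IFI27 the motif occurred 2 times, once on each strand, and the last base of the nearer match lay 86 bases before the RefSeq transcription start. IFI6 held 3 matches on the strand of the gene, of which GAAAATGAAA occurred 2 times within a repeated stretch. For BST2 the 30 bases around the 2 matches are shown, which overlap by the GAAA they share. These bases also lie in exons of MVB12A and BISPR, which run the other way. Of all RefSeq promoters, 839 of 27305 held the motif in the 250 bases before the start (3.073%), as did 204 of the 9974 promoters of tested genes (2.045%). A second motif, TTCCNGGAA, the kind bound by STAT dimers, occurred in IFI27 and in the 250 bases of BST2, and in 1.014% of all promoters. It is palindromic, so each occurrence matches both strands, and in IFI27 it overlaps the capitals at both of its ends. A match is a description of the letters, and binding was not measured.

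IFI27 (ENSG00000165949, chromosome 14, 94104836 to 94116698) encodes a mitochondrial protein that is among the most strongly interferon-induced. Its level was 34.6, 38.2 and 30.9 CPM in KO1 and 695, 627 and 531 CPM in KO2, against 63.5, 117 and 71.6 CPM in SETD3 CT. Each KO1 library was below and each KO2 library above all control libraries. The means of 34.6 ± 3.62 and 618 ± 82.6 CPM (SD, n = 3) gave a 17.8-fold difference (log2 4.16, SE 0.27, adjusted p = 1.77e-05, edgeR). Against SETD3 CT, KO2 was higher by 2.88 on the log2 scale (adjusted p = 0.00067 in edgeR), while KO1 was at -1.28 and did not pass (adjusted p = 0.181).

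IFI6 (ENSG00000126709, chromosome 1, 27666061 to 27672218) encodes a related mitochondrial and endoplasmic reticulum protein. It was at 39.8, 40.5 and 47.6 CPM in KO1 and at 345, 282 and 279 CPM in KO2. The control level was 134, 187 and 165 CPM. The control libraries lay between the lines without touching either. KO2 was 7.08-fold above KO1 (log2 2.82, SE 0.21, adjusted p = 6.3e-05, edgeR). Here the line that passed against SETD3 CT was KO1 (log2 -1.93, adjusted p = 0.0073 in edgeR), and KO2 did not (log2 0.90, adjusted p = 0.255).

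BST2 (ENSG00000130303, chromosome 19, 17402939 to 17405648), also called tetherin, holds budding virus particles at the cell surface. Its KO1 level was 4.14, 2.58 and 1.82 CPM, and its KO2 level was 70.0, 43.2 and 41.4 CPM. SETD3 CT libraries were at 25.7 to 43.2 CPM and overlapped KO2 but not KO1. The log2 difference between the lines was 4.17 (17.9-fold, SE 0.44, adjusted p = 0.00173, edgeR). KO1 was below SETD3 CT by a log2 difference of -3.53 (adjusted p = 0.0126 in edgeR), and KO2 differed from it by 0.64, which did not pass (adjusted p = 1.0).

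LY6D (ENSG00000167656, chromosome 8, 142784880 to 142786592) belongs to the LY6 family of lipid-anchored surface proteins. It was at 4.29, 9.16 and 5.46 CPM in KO1, with 60.8, 126 and 128 CPM in KO2 and 14.8, 7.54 and 6.57 CPM in the control. KO1 and SETD3 CT overlapped, and all KO2 libraries were higher. The log2 difference between the lines was 4.05 (16.5-fold, SE 0.47, adjusted p = 0.00374, edgeR), and KO2 passed against SETD3 CT as well (log2 3.43, adjusted p = 0.0125). An antisense gene, AC083841.2, overlaps LY6D and had 0 to 13 counts in KO1 and 5 to 25 in KO2. Whether counting used the strand is not given in the sources used here, so reads of the 2 genes may not be told apart.

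The 4 differences did not rest on the library that stood apart. Without KO2 replicate 1 the log2 differences were 4.07 for IFI27, 2.72 for IFI6, 3.89 for BST2 and 4.32 for LY6D, and all 4 passed in edgeR (adjusted p up to 0.0025). Without KO2 replicate 3, whose label reads HCT-117, they were 4.25, 2.87, 4.30 and 3.88, and again all 4 passed (adjusted p up to 0.0222). LY6D no longer passed when KO1 replicate 1 (adjusted p = 0.0585) or KO1 replicate 3 (adjusted p = 0.0553, edgeR) was left out.

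Of 43 tested genes within 250000 bases of the 4, none passed in edgeR, DESeq2 or edgeR with no filter beyond 1 count, and 1 had an unadjusted p below 0.05. The KO2 libraries lay above the KO1 libraries in 5 of the 43 and below them in 2, where 6.16% and 5.76% of all tested genes did so. IFI27L1, which ends 990 bases before IFI27 and belongs to the same family, had a log2 difference of 0.94 (unadjusted p = 0.0659), and IFI27L2, 11081 bases beyond it, had 0.19. OTUB2, a deubiquitinase gene 55906 bases away, had a larger difference of 2.47 without overlap (unadjusted p = 0.0722). MVB12A, whose start lies 74 bases from that of BST2 on the other strand, had a difference of 0.35 (unadjusted p = 0.166). BISPR, a long noncoding RNA 38 bases from BST2 on the same strand as MVB12A, had 0.16 (unadjusted p = 0.918). Its mean level was 0.17 CPM in each knockout line and 1.9 CPM in SETD3 CT. PSCA, LY6K and LY6E, LY6 family genes within 250000 bases of LY6D, had differences of 0.02, 0.83 and 0.19. Nearer to LY6D, the LY6 family locus LYNX1-SLURP2, 6656 bases away, had a difference of 1.54 without overlap (unadjusted p = 0.111), and LYNX1, which overlaps it and may share reads with it, had -0.51. LNCOC1, a long noncoding RNA 57907 bases from LY6D, had 2.33, also without overlap (unadjusted p = 0.103). The adjusted p was 0.999 for each of these neighbours in edgeR.

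The interferon list held 51 genes, of which 39 passed the filter on low counts. Of these 39, 34 were higher and 5 lower in KO2, with a median log2 difference of 0.89 against 0.01 over all tested genes. IFI27, IFI6 and BST2 passed, and 12 members had an unadjusted p below 0.05, all of them higher in KO2. Over all tested genes 2.72% were higher at that cut. In 12 members the KO2 libraries all lay above the KO1 libraries, and in 1 they all lay below, where 6.16% and 5.76% of all tested genes did so. Against SETD3 CT, the median of the list was -0.90 in KO1 and 0.06 in KO2. Summed over the list, the level was 4480, 4284 and 5862 CPM in KO1, 9093, 8044 and 7063 CPM in KO2, and 6622 to 8892 CPM in SETD3 CT. So the summed level of KO1 lay below all other libraries, and that of KO2 overlapped the control. The list was assembled with earlier results of these data known, and its direction is a description.

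**Figure D2:**
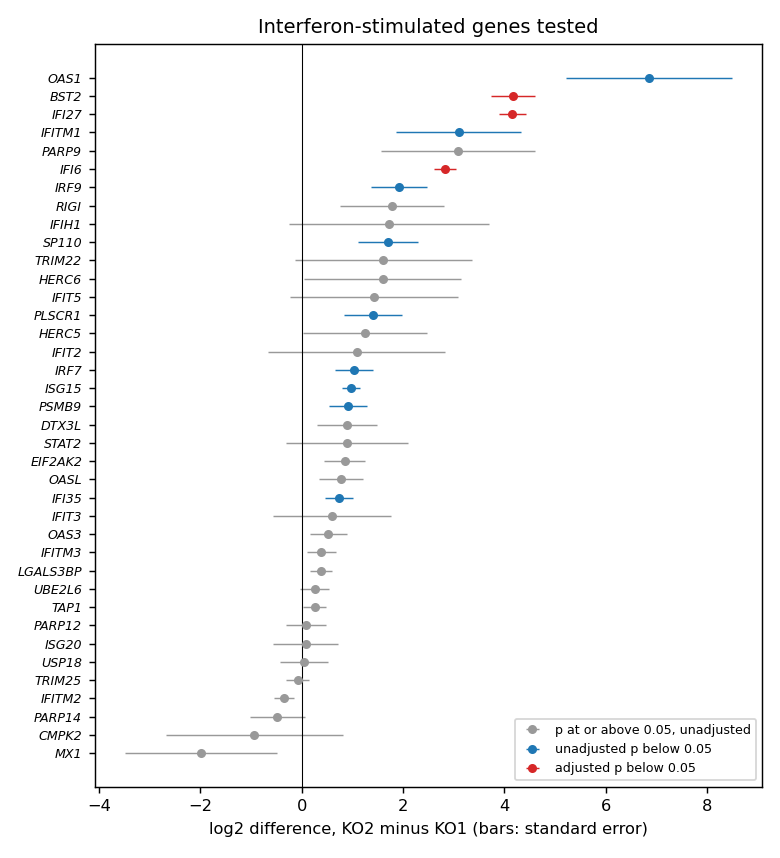
Log2 difference (KO2 minus KO1, x axis) with its standard error as a bar for the tested interferon-stimulated genes, 1 of which is not drawn, ordered by size. Red points (IFI27, IFI6, BST2) passed after adjustment, blue points had an unadjusted p below 0.05, and 5 points lie left of 0.

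Among the secreted and conjugated effectors, ISG15, a ubiquitin-like modifier, was the most abundant of the 12 members. It was at 1481, 1119 and 1785 CPM in KO1 and at 2741, 3024 and 2829 CPM in KO2, without overlap (log2 difference 0.97, SE 0.18), and its adjusted p was 0.126 in edgeR. DESeq2 and limma-voom called it, at adjusted p-values of 0.0010 and 0.0171. SETD3 CT was at 2695 to 3453 CPM, so KO2 lay within the control range and KO1 below it (log2 -1.08 against SETD3 CT, adjusted p = 0.0792 in edgeR).

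Of the signal transducers, IRF9, the DNA-binding part of the STAT complex, was at 5.92, 4.35 and 2.12 CPM in KO1 and 10.5, 16.9 and 19.6 CPM in KO2 (log2 difference 1.93, adjusted p = 0.728 in edgeR). IRF7, the factor that amplifies interferon production, was at 25.6, 15.9 and 29.1 CPM against 47.1, 56.6 and 40.4 CPM (log2 difference 1.03, adjusted p = 0.999). In neither gene did the lines overlap. STAT2 was under 7 CPM in all 6 libraries.

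OAS1, the sensor that makes short adenylate chains from double-stranded RNA, had 2 counts over the KO1 libraries and 425 over the KO2 libraries. After scaling by library size this was a ratio of 177 (exact 95% interval 48.6 to 1463, counting error only). Per library the KO2 level was 0.955, 21.7 and 15.1 CPM and the SETD3 CT level 21.6, 0.443 and 14.1 CPM, so both shallow libraries, KO2 replicate 1 and SETD3 CT replicate 2, were near 0. The adjusted p of OAS1 was 0.410 in edgeR with all libraries and 0.0063 without those 2, and DESeq2 called it with all libraries (adjusted p = 0.0018). IFITM1, a membrane protein that blocks virus entry, had no count in KO1 replicates 1 and 2, 13.3 CPM in KO1 replicate 3, and 47.7, 40.3 and 25.3 CPM in KO2 (log2 difference 3.09, adjusted p = 0.999 in edgeR). It passed only when KO1 replicate 3 was left out or the filter on low counts was dropped (adjusted p = 0.00161 and 9.7e-05). IFITM1 shares long stretches with IFITM2 and IFITM3, so its counts are uncertain. SP110, IFI35, PLSCR1 and PSMB9 complete the 12, with log2 differences of 1.71, 0.74, 1.41 and 0.91.

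Several classical interferon targets gave no difference to read. MX1 was under 2 CPM in every knockout library (log2 difference -1.99, unadjusted p = 0.208). The 12 untested members had few counts, and IFI44, OAS2 and SAMD9L had none in any of the 9 libraries. IFIT1, which binds viral RNA, had 8, 1 and 0 counts in KO1 and 0, 38 and 7 counts in KO2. Within the list, 17 tested members had the ISRE-like motif in the promoter entry, and their median log2 difference was 0.97, with 16 of 17 higher and 6 at an unadjusted p below 0.05. The 15 without it had a median of 0.89, with 12 higher and 5 at an unadjusted p below 0.05. The genes that passed after adjustment were all in the first group, while the medians of the groups were close. Of 14 blood cell markers, PTPRC, CD3E, MS4A1, CD14 and TYROBP had no count in any library, and the 2 that were tested, CD68 and LYZ, were higher in KO2 (median 1.73, neither at an unadjusted p below 0.05). The summed blood markers were at 1.36 to 13.8 CPM in KO1 and 10.6 to 34.4 CPM in KO2, ranges that overlapped, and their part in the interferon difference was not tested.

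**Figure D3:**
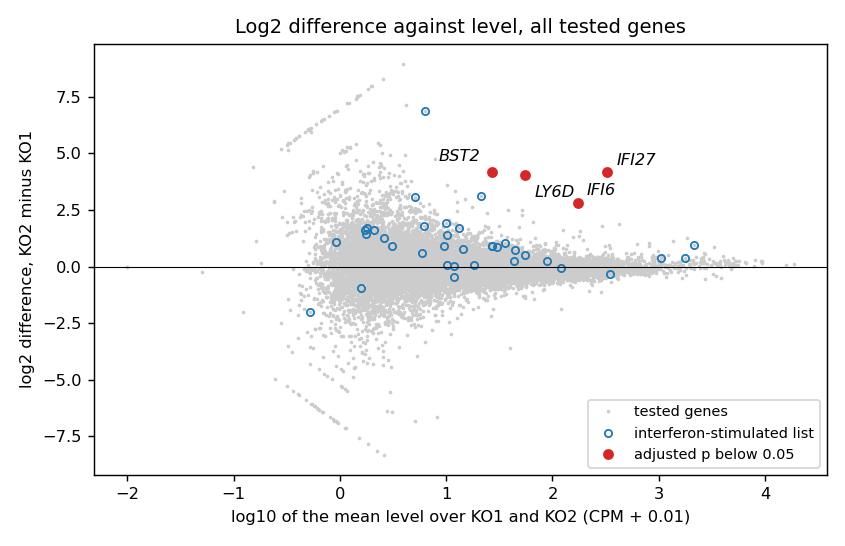
Log2 difference (KO2 minus KO1, y axis) against log10 of the mean level over both lines (CPM + 0.01, x axis) for all 13846 tested genes in grey, with the interferon list in open blue circles. The 4 genes that passed, in red, lie above the cloud at mean levels where the spread of other genes is narrow, and the cloud widens to the left, where levels are low.

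Below the threshold, the genes with the smallest p-values fell in both directions. TAGLN, an actin-binding protein of the cortex, was at 19.4, 18.8 and 7.89 CPM in KO1 and at 101, 88.9 and 73.0 CPM in KO2, and SETD3 CT was at 36.0, 77.1 and 61.0 CPM. The control libraries lay above KO1 and overlapped KO2. Its log2 difference was 2.51 (SE 0.39, adjusted p = 0.0676 in edgeR), and limma-voom and DESeq2 placed it past the threshold (adjusted p = 0.0368 and 4.2e-07). TAGLN was the single member of the SRF-MRTF actin target list to have an unadjusted p below 0.05 with a higher level in KO2. Over the 22 tested members of that list the median was -0.08, with 10 higher and 12 lower.

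FXYD3, a regulator of the sodium pump, was at 9.77, 16.0 and 8.49 CPM in KO1 and 78.9, 56.0 and 59.1 CPM in KO2 (log2 difference 2.49, adjusted p = 0.0935 in edgeR). NDUFA4, a subunit of respiratory complex IV, was at 3.11, 2.11 and 1.21 CPM against 18.8, 22.6 and 24.4 CPM (log2 difference 3.35, adjusted p = 0.0935). Over the nuclear-encoded oxidative phosphorylation list, 41 of 74 tested members were higher and the median was 0.03. DRG1, a ribosome-associated GTPase, was at 13.3, 25.4 and 14.0 CPM against 86.6, 90.6 and 78.3 CPM (log2 difference 2.27, adjusted p = 0.198 in edgeR). In all 3 genes the KO2 libraries lay above the KO1 libraries, and none passed in edgeR as filtered. DESeq2 called FXYD3, NDUFA4 and DRG1 (adjusted p = 1.8e-05, 9.95e-06 and 0.00056), as did edgeR with no filter beyond 1 count (adjusted p = 2e-06, 0.0018 and 1.7e-06). KRT14, a basal keratin, had no count in KO1 and 239 over KO2, which is at least 66.2-fold higher against a floor of 3 counts over the KO1 group (adjusted p = 0.223 in edgeR). Its KO2 libraries were at 3.18, 17.5 and 2.90 CPM and SETD3 CT at 2.04, 12.9 and 4.29 CPM. ANXA10, an annexin, had 1 count over KO1 and 262 over KO2, a ratio of 218 (exact 95% interval 38.8 to 8635, counting error only), with an adjusted p of 0.419 in edgeR. SETD3 CT was low for ANXA10 too, at 1.36, 0.222 and 0 CPM. DESeq2 called KRT14 and ANXA10 as well (adjusted p = 0.00018 and 0.0077).

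On the lower side, SNHG9, a small nucleolar RNA host gene, was at 215, 172 and 184 CPM in KO1 and 33.1, 73.2 and 47.8 CPM in KO2 (log2 difference -1.88, SE 0.31, adjusted p = 0.0852 in edgeR). It passed in edgeR without KO2 replicate 2 (adjusted p = 0.0472). VEGFB, a growth factor of the VEGF family, was at 111, 84.9 and 97.5 CPM against 33.4, 37.7 and 37.5 CPM (log2 difference -1.43, unadjusted p = 7.9e-05), and did not pass in edgeR. RELA, the p65 subunit of NF-kB, was at 72.6, 80.1 and 87.1 CPM against 31.5, 23.6 and 36.6 CPM (log2 difference -1.39, adjusted p = 0.126 in edgeR). In VEGFB and RELA the KO1 libraries lay near or within the control range and the KO2 libraries below it. EIF4G1, the scaffold of the cap-binding complex, was at 439, 330 and 399 CPM against 243, 160 and 135 CPM (log2 difference -1.12, adjusted p = 0.331), and passed without the 2 libraries under 5000000 counts (adjusted p = 0.0228 in edgeR). S100A10, the partner of annexin A2, was at 326, 309 and 264 CPM against 108, 142 and 169 CPM (log2 difference -1.10, adjusted p = 0.198 in edgeR). RNF43, a ubiquitin ligase that removes Wnt receptors, had 117 counts over KO1 and 1 over KO2, a ratio of 141 (exact 95% interval 24.8 to 5606, counting error only). Its adjusted p was 0.308 in edgeR, and SETD3 CT was at 11.1, 2.22 and 7.07 CPM. DESeq2 called all 6 of these lower genes (adjusted p up to 0.0137).

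HOXB8, a homeobox factor of the HOXB cluster on chromosome 17, was at 12.9, 21.4 and 14.7 CPM in KO1 and at 0, 0.361 and 0 CPM in KO2 (log2 difference -6.65, SE 1.09, adjusted p = 0.0852 in edgeR). SETD3 CT was between, at 6.30, 2.44 and 10.1 CPM. DESeq2 called HOXB8 (adjusted p = 3.5e-07), as did edgeR without the 2 shallow libraries (adjusted p = 0.0462). HOXB6, HOXB4 and HOXB7 of the same cluster had differences of -1.69, -2.12 and -0.49 with unadjusted p-values of 0.0369, 0.0400 and 0.0425. They are named as the other HOX genes at an unadjusted p below 0.05, and the rest of the cluster is not described. In each of these 4 genes the KO2 libraries lay below the KO1 libraries. Of the 21 HOX genes tested, 16 were lower in KO2 and 5 higher, with a median of -0.50, and against SETD3 CT the median was 0.64 in KO1 and 0.15 in KO2. None passed in edgeR, 4 had an unadjusted p below 0.05, DESeq2 called 1 and limma-voom called none. Over all tested genes 2.12% were lower at an unadjusted p below 0.05 in edgeR, and DESeq2 called 0.404%.

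Cytosolic ribosomal protein genes, all 83 of which were tested, were higher in KO2 in 71 cases, with a median difference of 0.20. None passed in edgeR, 16 had an unadjusted p below 0.05 and all 16 were higher in KO2, DESeq2 called 7 higher and limma-voom 2. Over all tested genes 2.72% were higher at an unadjusted p below 0.05 in edgeR. DESeq2 called 0.404% of them and limma-voom 0.065%. RPL37A was at 2096, 2447 and 2514 CPM in KO1 and 4805, 3955 and 4027 CPM in KO2 (log2 difference 0.86, SE 0.14, adjusted p = 0.0935 in edgeR). RPL32 was at 705, 813 and 1025 CPM against 1821, 1800 and 2014 CPM (2.22-fold, adjusted p = 0.145). For RPS4X the values were 117, 164 and 251 CPM against 616, 615 and 750 CPM (log2 difference 1.90, adjusted p = 0.198 in edgeR). These 3 subunit genes were apart between the lines, and SETD3 CT overlapped or lay next to KO2 in RPS4X and RPL32 except for control replicate 3. Against SETD3 CT the list's median was -0.22 in KO1 and 0.01 in KO2. The summed level of the list was 199386 to 232918 CPM in KO1 and 229180 to 257806 CPM in KO2, ranges that overlapped. Many ribosomal protein genes have processed copies in the genome, so their counts depend on how reads with several matches were shared out.

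Other parts of the translation apparatus had medians nearer 0. Of 49 translation factors tested, 25 were higher and 24 lower (median 0.03), and of 77 mitochondrial ribosomal protein genes 37 were higher and 40 lower (median -0.01). EEF1A1, the elongation factor that delivers tRNA, was at 1078, 1120 and 1034 CPM in KO1 and 1557, 2354 and 3904 CPM in KO2 (log2 difference 1.27, adjusted p = 0.571 in edgeR). Among 42 ribosome biogenesis factors the median was 0.09, and among 20 cytosolic tRNA synthetases 0.13. No member of these 4 lists passed in edgeR, and the counts at an unadjusted p below 0.05 were 2 higher and 1 lower, 1 and 1, 3 and 0, and 1 and 0. Over all tested genes 2.72% were higher and 2.12% lower at that cut. DESeq2 called EEF1A1 higher and EIF4G1 lower (adjusted p = 0.0238 and 0.0137) and no other member of the 4 lists.

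**Figure D4:**
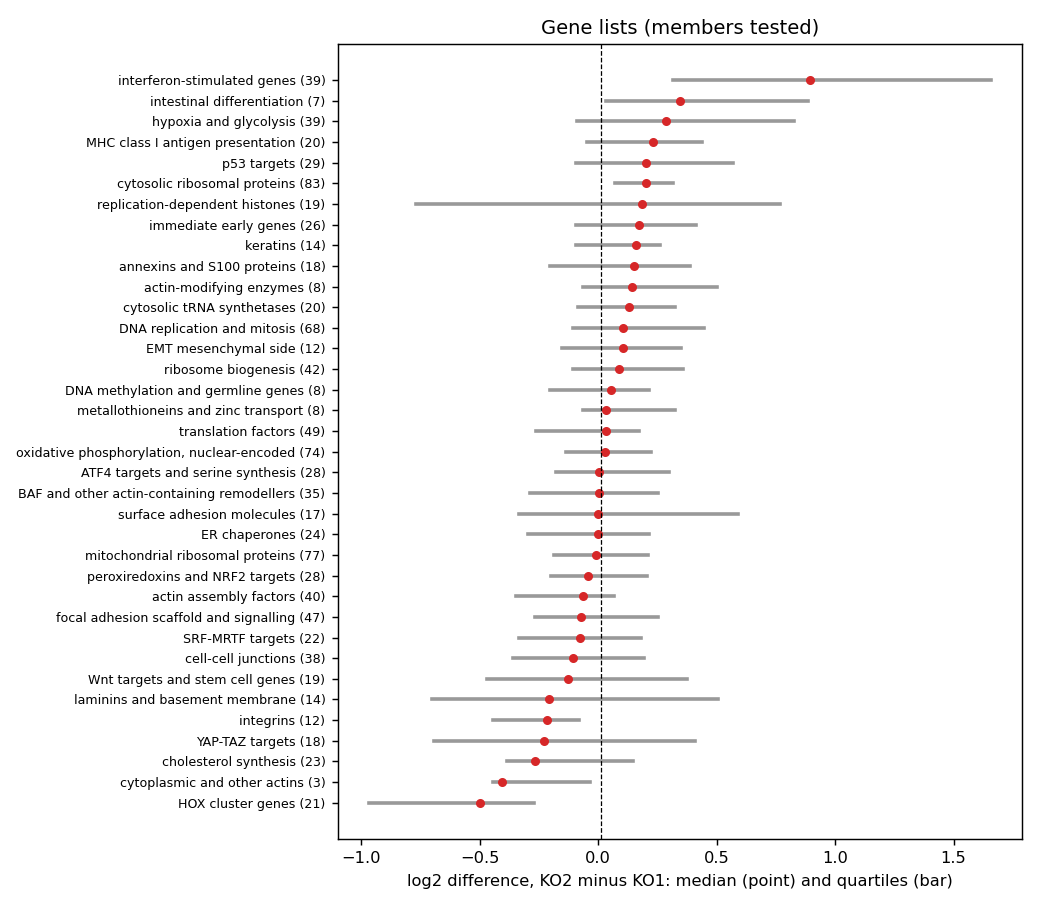
Median (point) and quartiles (bar) of the log2 difference (KO2 minus KO1) over the tested members of each gene list, with the number of members in brackets and the median of all tested genes as a dashed line. Among the 36 lists drawn, the interferon list has the highest median (0.89) and the HOX list the lowest (-0.50). The 6 lists of cell type and RNA quality markers are not drawn.

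Of the hypoxia and glycolysis genes, 27 of 39 tested members were higher in KO2, with a median of 0.29 and 8 at an unadjusted p below 0.05, all higher. None passed in edgeR, DESeq2 called 1 and limma-voom none. Over all tested genes 2.72% were higher at an unadjusted p below 0.05 in edgeR, and DESeq2 called 0.404%. The summed level of the list was 17744, 15752 and 20215 CPM in KO1 and 24097, 16550 and 17051 CPM in KO2. Only the shallow KO2 replicate 1 lay above the KO1 range, and the other KO2 libraries lay within it. DDIT4, an inhibitor of mTORC1 induced by low oxygen, was at 40.8, 33.2 and 45.5 CPM in KO1 and 112, 78.6 and 99.3 CPM in KO2 (log2 difference 1.28, adjusted p = 0.180 in edgeR). ADM, the vasodilator peptide adrenomedullin, was at 28.7, 32.7 and 29.3 CPM against 102, 60.5 and 45.8 CPM (2.29-fold, adjusted p = 0.578). Of 29 p53 targets 20 were higher (median 0.20), and GDF15, a stress-induced cytokine, was at 197, 160 and 196 CPM against 274, 288 and 251 CPM (log2 difference 0.55, adjusted p = 0.939 in edgeR). Of 20 MHC class I antigen presentation genes 14 were higher (median 0.23). HLA-C, a class I heavy chain, was at 568, 457 and 382 CPM against 772, 564 and 775 CPM, with a log2 difference of 0.58 (adjusted p = 0.955 in edgeR) and overlapping libraries.

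For actin and adhesion, the themes of the study, the medians of the lists were near or below 0. Of 40 actin assembly factors 14 were higher and 26 lower (median -0.06), of 47 focal adhesion genes 22 and 25 (median -0.07), of 38 cell-cell junction genes 14 and 24 (median -0.11), and of 12 integrins 3 and 9 (median -0.21). No member of these lists passed in edgeR, and at an unadjusted p below 0.05 the counts were 0 higher with 2, 3, 0 and 0 lower. Over all tested genes 2.72% were higher and 2.12% lower at that cut. DESeq2 called 1 focal adhesion gene, TNS4, a tensin that links integrins to the cytoskeleton (log2 difference -2.20, adjusted p = 0.0033), and no member of the other 3 lists. TMSB10, which binds actin monomers, was at 2082, 1811 and 1991 CPM in KO1 and 1469, 1098 and 1546 CPM in KO2 (log2 difference -0.52, adjusted p = 0.999). LAMA5, a laminin chain of basement membranes, was at 19.7, 26.0 and 26.2 CPM against 6.37, 8.76 and 8.86 CPM (log2 difference -1.57, adjusted p = 0.384 in edgeR), and SETD3 CT was at the KO1 level with 20.1 to 27.3 CPM. DESeq2 called LAMA5 (adjusted p = 0.0196), the single called gene of the laminin and basement membrane list. Of 35 subunits of BAF and other actin-containing remodellers 18 were higher and 17 lower (median 0.00), and none had an unadjusted p below 0.05. DPP4, a surface peptidase, was above SETD3 CT in every library of both lines. It was at 18.8, 7.99 and 6.22 CPM in KO1 and 31.2, 24.1 and 22.2 CPM in KO2, against 0 to 0.443 CPM in SETD3 CT. KO2 passed against the control (adjusted p = 0.0098 in edgeR), KO1 did not (adjusted p = 0.0545), and the log2 difference between the lines was 1.23 (adjusted p = 0.999).

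Mitochondrially encoded transcripts, a sign of RNA quality, were mostly higher in KO2. Of 15 such genes 14 were higher in KO2, with a median of 0.36. None passed in edgeR, and 2 had an unadjusted p below 0.05, each of them higher in KO2. Over all tested genes 2.72% were higher at that cut. DESeq2 and limma-voom called none, and edgeR with no filter beyond 1 count called MT-CO1 (adjusted p = 0.00093). The summed level of these genes was 7852, 8808 and 9480 CPM in KO1, 9887, 12888 and 12602 CPM in KO2, and 10014 to 18350 CPM in SETD3 CT. The lines did not overlap in these TMM-scaled levels. As a share of total counts, before that scaling, they did overlap. The share was 0.815%, 0.952% and 0.917% in KO1 and 0.919%, 1.31% and 1.31% in KO2. The part of RNA quality in the gene differences above was not tested. Of 12 fibroblast markers 5 were tested, and all 5 were higher in KO2 (median 0.34). COL1A1, a collagen chain, was at 1.92, 0.470 and 2.58 CPM in KO1 and 15.3, 13.4 and 2.98 CPM in KO2, without overlap (log2 difference 2.66, unadjusted p = 0.0229, adjusted p = 0.999 in edgeR). COL6A3, another collagen chain, was at 7427 to 10227 CPM in KO1 and 8881 to 11405 CPM in KO2. COL3A1, DCN, LUM, PDGFRB, FAP and POSTN had no count in any library. The summed fibroblast markers, nearly all of them COL6A3, were at 7421 to 10215 CPM in KO1 and 8879 to 11402 CPM in KO2. Sums were scaled by all counts of a library and single genes by the counts of tested genes, so COL6A3 can slightly exceed the sum. The part of fibroblast markers in the gene differences was not tested. The 3 tested liver and kidney markers were lower in KO2 (median -0.73), and ALB, AFP and TTR, markers of liver, had no count.

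Chromosomes had similar medians. Over genes at 10 CPM or more, the median log2 difference of a chromosome ran from -0.16 on chromosome 13 (79 genes) and -0.12 on chromosome 4 (186 genes) to 0.03 on chromosome 15 (212 genes), with -0.02 over all of them. In 6209 overlapping runs of 40 neighbouring genes the median ran from -0.32 to 0.24. The lowest run lay on chromosome 4 between SEL1L3 and SCARB2 (25747427 to 76234536), where 7 of 40 genes were higher in KO2. The 4 genes that passed lay on 4 different chromosomes.

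**Figure D5:**
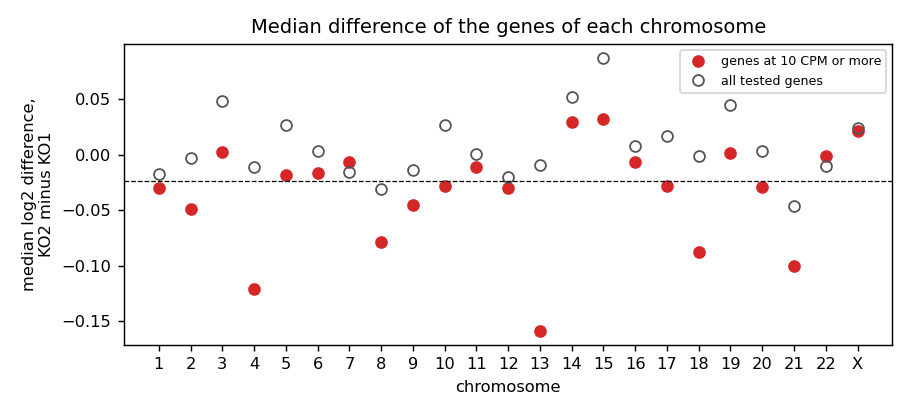
Median log2 difference (KO2 minus KO1, y axis) of the genes of each chromosome (x axis), for genes at 10 CPM or more (filled red) and for all tested genes (open), with the median over all genes at 10 CPM or more as a dashed line. All medians lie between -0.16 and 0.09, with chromosomes 13 and 4 lowest among the filled points.

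Spread between libraries was wider at low levels. For genes above 100 CPM, the median SD of log2 levels was 0.20 within KO1 and 0.30 within KO2, and 0.13 between KO2 replicates 2 and 3. The last value is an SD of 2 libraries, so it is not directly comparable with an SD of 3. At 1 to 5 CPM the median SD was 1.07 within KO1 and 1.30 within KO2. Biological variation estimated by edgeR, a coefficient of variation that leaves out counting error, had a median of 22.7% above 100 CPM and 100% at 1 to 5 CPM. The median absolute log2 difference between the lines was 0.17 above 100 CPM with a median SE of 0.23, so a typical gene differed by less than its error.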

How the data were processed

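RNA of 9 HCT-116 libraries (3 each of SETD3 CT, KO1 and KO2) was read from a table of RSEM expected counts per gene deposited by the authors without normalisation. Per the submitters' processing notes, trimming used Trim Galore 0.4.5 with cutadapt 1.15, and quantification on GRCh38 used RSEM 1.2.28 with Bowtie2, whose version is not given; annotation release and strand setting are not given in the sources used here. The table has 60683 rows, of which 36107 have no count, and 83.8% of values are whole within 0.005. The counts were rounded. The study's other table, from ACTB-edited cells, was not used here.

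Rounded counts of all 9 libraries were fitted together in edgeR 4.0.16 (R 4.3.3) with filterByExpr, TMM scaling and robust quasi-likelihood F tests, two-sided, with Benjamini-Hochberg adjustment over 13846 genes and calls at an adjusted p below 0.05. The fit was tested on simulated data. SE is the absolute log2 difference divided by the square root of F. CPM levels were computed here. Levels of single genes were scaled by the counts of tested genes and summed levels of lists by all counts of the library, each with the TMM factor. The scales thus differ slightly. Intervals and floors (3 counts) cover counting error only. Coordinates come from GENCODE (58496 identifiers matched) and promoter sequences from RefSeq on GRCh38.p14.

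Genes named were the called genes, the called members of 42 gene lists or else their 2 members with the smallest p, and SETD3, ACTB, ACTG1 and SMARCA4; genes near the threshold, TNS4, COL1A1, neighbours of called genes, HOX neighbours and the other interferon and ribosomal protein genes were added after their values were seen. The comparison and the lists were chosen with earlier results of these data known. Lists were described by counts and medians, with no set test. Alternatives were other scalings and filters, DESeq2 1.42.0, limma-voom (limma 3.58.1), a fit of both lines alone, a non-robust fit, the replicate number as a block, and leaving out libraries; those without a SETD3 CT library or without both libraries under 5000000 counts were added after the data were seen. A few genes of the lists are counted in these values but not reported here by name.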

Additional observations from a re-analysis of the deposited data

Results flagged for a closer look

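For 4 genes the departure from SETD3 CT differed between the lines, by the log2 difference KO2 minus KO1 in edgeR. The control cancels in that difference, so this is the same test of line against line as above. Whether either departure comes from the knockout was not tested. The difference was 4.16 for IFI27 (KO1 -1.28, KO2 2.88 against SETD3 CT), 2.82 for IFI6 (KO1 -1.93, KO2 0.90), 4.17 for BST2 (KO1 -3.53, KO2 0.64) and 4.05 for LY6D (KO1 -0.62, KO2 3.43). The KO2 libraries lay above the KO1 libraries in all 4 genes. For IFI6 and BST2 the line that passed against SETD3 CT was KO1, and for IFI27 and LY6D it was KO2. Both lines share the control libraries, and the cause of the differences was not tested.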

How the results depend on the processing

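IFI27, IFI6 and BST2 passed under all 19 alternatives, and LY6D under 16 (adjusted p up to 0.0585). The count of 4 genes, all higher in KO2, rose to 56 under DESeq2 (37 higher, 19 lower), to 58 with no filter beyond 1 count (40 higher, 18 lower; 24426 genes tested), to 9 under limma-voom (8 higher, 1 lower) and to 10 without the 2 libraries under 5000000 counts (7 higher, 3 lower). All of these sets held the same 4 genes, and the cause of the larger counts was not tested. Leaving out 1 library gave 3 to 6 genes, 3 to 5 of them higher and 0 to 1 lower. KO1 replicate 1 or 3 left out lost LY6D, KO1 replicate 3 left out added IFITM1, KO2 replicate 2 or SETD3 CT replicate 1 left out added SNHG9, the latter also TAGLN, and SETD3 CT replicate 2 left out added FXYD3.

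Deviations of same-numbered KO1 and KO2 libraries from their line mean correlated at -0.10, 0.22 and -0.34. No KO1 library correlated best with its own number. Deviations cancel within a line of 3 libraries, so these correlations cannot tell whether replicate numbers pair the libraries. With the replicate number as a block, 3 genes passed and LY6D did not (adjusted p = 0.0503).

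The medians of the interferon, ribosomal protein and HOX lists kept their sign under all alternatives. Of the 42 list medians, 19 changed sign under at least 1 alternative. The histone median, 0.18 with all libraries, ran from -0.76 (genes at 5 CPM or more in 3 knockout libraries) to 0.22 and was -0.44 under limma-voom. Without KO2 replicate 3 the median of the intestinal differentiation list went from 0.35 to -0.08 and that of translation factors from 0.03 to -0.11.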

Other observations

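H4C3, a replication-dependent histone H4 gene whose coding sequence has near-identical copies, was at 2708, 3049 and 3888 CPM in KO1 and 2147, 2355 and 2038 CPM in KO2 (log2 difference -0.56, adjusted p = 0.777 in edgeR). NR2F1, an orphan nuclear receptor, had control levels of 115, 84.4 and 88.4 CPM, while KO1 had 39.5, 37.1 and 42.9 CPM and KO2 12.4, 20.9 and 15.8 CPM. Neither pair of groups overlapped for NR2F1. KO2 passed against SETD3 CT (adjusted p = 0.0061 in edgeR) and KO1 did not (adjusted p = 0.297). The difference between the lines was -1.27 (adjusted p = 0.283 in edgeR, 0.0083 in DESeq2). ELF3, an epithelial transcription factor, was at 184, 165 and 196 CPM in KO1 and at 288, 225 and 259 CPM in KO2 (log2 difference 0.50, adjusted p = 0.999 in edgeR). Most epithelial markers went the other way. Of the 11 tested markers of a colorectal epithelial line, ELF3 among them, 3 were higher and 8 lower in KO2 (median -0.19).

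Across genes, the log2 difference between the lines had a correlation of 0.013 with GC content and of -0.065 with log transcript length, over 7120 genes that are not independent of each other.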
